A study of Mus musculus and Acomys cahirinus with 16 samples.

Results

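The genes described here encode the matrix metalloproteinases (MMP), the ADAMTS proteases, the ADAMTS-like proteins (ADAMTSL) and the tissue inhibitors of metalloproteinases (TIMP). They were taken by symbol: Mmp, Adamts, Timp or Adamtsl followed by a digit, with pseudogenes left out. The rule found 51 of the 56980 genes in the mouse table and the same 51 symbols among the 19818 genes of the spiny mouse table. These were 23 MMP, 19 ADAMTS, 5 ADAMTSL and 4 TIMP genes. Mmp24os1, which also matched in mouse, is named for its place opposite Mmp24 and was set aside.

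MMPs and ADAMTS proteases are zinc enzymes that are secreted or held at the cell surface, where they cut collagens, proteoglycans and other proteins of the extracellular matrix. Most are made as inactive proenzymes, and TIMPs block them by binding the active site. ADAMTSL proteins share the binding domains of ADAMTS proteases but lack the catalytic domain, and several bind the fibrillin microfibrils of connective tissue. In skin these genes are known from hair growth, wound repair and tumour stroma, where keratinocytes, fibroblasts and infiltrating leukocytes each express some of them.

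Polyadenylated RNA of skin was sequenced in 16 libraries of the laboratory mouse (Mus musculus) and the African spiny mouse (Acomys cahirinus). The labels give 4 groups of 4: untreated mouse, DMBA/TPA-treated mouse, untreated spiny mouse and DMBA/TPA-treated spiny mouse. DMBA, a polycyclic hydrocarbon, is used to start skin tumours through mutation, and repeated TPA, a phorbol ester, to promote them. The comparison asks how the skin of either species differs after this regimen of chemical carcinogenesis. The design text of the series speaks of irradiated fibroblasts instead, and the title and labels were followed. The labels name the tissue only as skin. They give no strain, genetic change, age, sex, dose or duration, do not say whether treated skin held tumours, and do not say whether libraries of a group came from separate animals. All p-values therefore measure only the spread between these samples.

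Mouse libraries held 19608787 to 30198281 counts in all, and spiny mouse libraries 21143918 to 30561256. Levels are given as CPM, the share of a library's counts scaled with edgeR's TMM factors, and 3 counts in a library correspond to 0.102 to 0.158 CPM. Intervals and floors of this kind cover counting error only. Markers of basal keratinocytes summed to 6180 to 9030 CPM in untreated and 14100 to 18800 in treated mouse skin, and to 7770 to 9060 and 16800 to 21200 CPM in spiny mouse. Of these 6 markers 2 rose and 1 fell in mouse, and 5 rose in spiny mouse. Untreated mouse replicate 2 stood apart. Its summed markers of the growing (anagen) hair follicle reached 2590 CPM, against 9.93 to 39.6 in the other untreated mouse libraries and 22200 to 24200 in treated mouse skin, where 6 of the 8 markers were called higher. For spiny mouse this sum was 1250 to 13400 CPM untreated and 198 to 3560 treated, with 2 of 7 tested markers called lower. All tested skeletal muscle markers fell with treatment, 8 in mouse (summed level 10300 to 14700 CPM untreated, 2370 to 3200 treated) and 7 in spiny mouse (10400 to 13200 and 3470 to 7170). In bulk tissue, fewer cells of a type and less RNA per cell cannot be told apart. Results that rest on single libraries are given with and without them.

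After DMBA/TPA, spiny mouse skin had more transcripts of the secreted proteases Mmp13, Mmp3, Mmp10 and Mmp9 and of the inhibitor Timp1, and less of all 5 ADAMTSL genes and of most ADAMTS genes that changed. In mouse skin 6 of the 11 genes that rose were ADAMTS proteases, the others being Timp1, Timp3, Mmp11, Mmp8 and Mmp16, and 4 of 5 ADAMTSL genes fell. Calls rest on edgeR's quasi-likelihood test, with p-values adjusted by Benjamini-Hochberg over the whole table and a threshold of 0.05. In mouse 44 of the 51 genes passed the filter on low counts and 23 of these (52.3%) were called, 11 higher and 12 lower. That share lies below the 61.2% of all 19740 mouse genes tested that were called (25.9% higher, 35.3% lower). Among the 6 ADAMTS genes called higher in mouse, Adamts20 and Adamts3 kept the call in only 1 of 8 fits that left out 1 library. With upper-quartile factors or library size alone, both of these and Timp3 lost it. In spiny mouse 44 were tested and 30 (68.2%) were called, 11 higher and 19 lower, against 55.1% of all 14833 genes (28.2% higher, 26.9% lower).

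The median log2 fold change of the tested genes was 0.134 in mouse, with -0.146 for all genes, and -0.305 in spiny mouse, with -0.01 for all genes. Groups of 4 did not overlap for 21 of the 44 mouse genes (47.7%; 58.6% of all genes) and for 27 of the 44 spiny mouse genes (61.4%; 50.9% of all genes). Changes of at least 1 on the log2 scale were called for 18 genes in mouse (40.9%; 34.1% of all genes) and for 16 in spiny mouse (36.4%; 15% of all genes). In mouse the split between higher and lower depends on the scaling: library size alone gave 8 higher and 14 lower, and leaving out the count filter gave 15 higher and 9 lower.

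**Figure D1:**
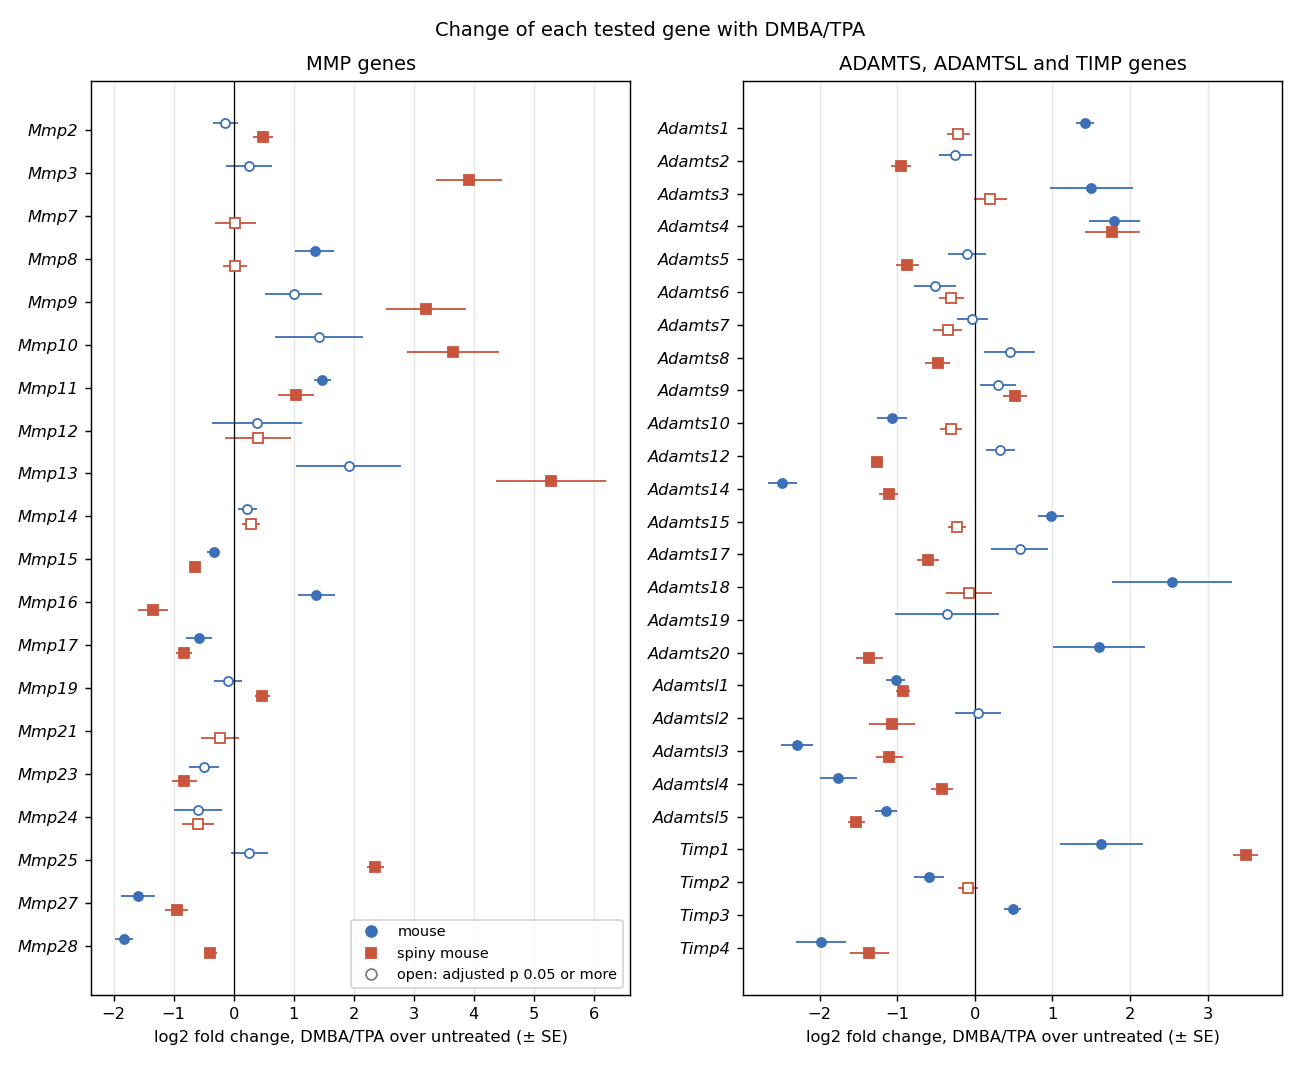
Log2 fold change of each tested gene, DMBA/TPA over untreated, with its standard error (horizontal axis), in mouse (circles) and spiny mouse (squares); filled symbols have an adjusted p under 0.05. Mmp13, Mmp3, Mmp10, Mmp9 and Timp1 lie farthest to the right in spiny mouse, and the ADAMTSL genes lie at or left of 0 in both species except mouse Adamtsl2 at 0.04.

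Of the mouse genes, 10 MMPs form a cluster on chromosome 9 between Mmp13 and Mmp7 (GRCm39, chr9:7272514-7699586). In the spiny mouse assembly the same 10 lie on scaffold_8 (AcoCah2, positions 58387344 to 58667717) in the same order, apart from Mmp1b, which there overlaps Mmp1a. Promoters of MMP genes are known for sites of AP-1, the Fos and Jun transcription factor that phorbol esters activate. The AP-1 site TGACTCA was searched on both strands in RefSeq promoters of 300 bases, 250 before and 50 after the start, with the table's build GRCm38.p6. It was found for 7 of the 10 cluster genes (70%), for 7 of 18 MMP genes with a promoter in the table (38.9%), and for none of 10 ADAMTS, 4 ADAMTSL and 4 TIMP genes. Among all 27025 genes with a promoter 5.95% held it, and among all 32851 promoters 5.2%. For 15 genes of the families, among them Mmp9, Mmp2, Mmp19, Adamts4 and Adamts5, no promoter was listed, so none was searched. Only the exact 7 bases were matched, so a promoter counted as without the site may still hold a variant of it. The 4 genes of the cluster that hold the site and passed the filter on low counts in both species are printed here as 47 bases, 5′ to 3′ on the gene's strand. Capitals mark the AP-1 site, which is on the gene's strand in Mmp13 and on the opposite strand in the other 3.
Mmp13, GRCm39 chr9:7272459-7272505, plus strand: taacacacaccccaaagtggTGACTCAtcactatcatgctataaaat
Mmp3, GRCm39 chr9:7445756-7445802, plus strand: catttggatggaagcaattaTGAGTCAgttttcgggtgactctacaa
Mmp10, GRCm39 chr9:7502260-7502306, plus strand: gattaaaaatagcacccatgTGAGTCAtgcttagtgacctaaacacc
Mmp12, GRCm39 chr9:7347310-7347356, plus strand: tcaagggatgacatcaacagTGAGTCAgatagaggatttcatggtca
The first base of the site lies 35 bases before the start of Mmp13, 46 before that of Mmp3, 63 before that of Mmp10 and 44 before that of Mmp12, where it is in 1 of the gene's 2 listed promoters. Mmp1a, Mmp1b and Mmp7 hold it as well, and the promoters of Mmp8, Mmp20 and Mmp27 do not. These are mouse sequences; promoters of the spiny mouse were not analysed here. A match is a description of the letters, not evidence of binding.

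Collagenases cut the triple helix of fibrillar collagens. Mmp13 had the highest fold change of the 44 genes tested in spiny mouse. In untreated spiny mouse skin its level was 6.12, 1.59, 5.51 and 3.34 CPM in replicates 1 to 4, and after DMBA/TPA 49.2, 82, 46.8 and 479 CPM. Every treated library lay above every untreated library, and treated replicate 4 lay far above the other treated libraries. The log2 fold change was 5.29 (SE 0.914, adjusted p = 0.00114), a 39.2-fold rise, and without treated replicate 4 it was 3.84 (adjusted p = 0.000286). In mouse Mmp13 was 11, 0.965, 12.5 and 29.5 CPM untreated and 22.1, 23.6, 25 and 133 CPM treated. The mouse groups overlap, and again treated replicate 4 is the highest. The mouse change of 1.92 (SE 0.878, adjusted p = 0.0839) was not called. It was called without untreated replicate 2 (1.63, adjusted p = 0.0414) or untreated replicate 4 (2.64, adjusted p = 0.0415), and was 0.82 without treated replicate 4 (adjusted p = 0.375).

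Mmp8, the collagenase stored in neutrophil granules, rose in mouse alone. In that species it went from 0.529, 0.307, 0.843 and 0.547 CPM to 1.37, 1.54, 1.64 and 1.19 CPM, with a log2 fold change of 1.35 (SE 0.323, adjusted p = 0.00581). Spiny mouse skin held 24.2, 19.7, 28.5 and 31.3 CPM untreated and 22.9, 22.5, 38 and 21.8 CPM treated, a change of 0.02 (SE 0.205, adjusted p = 0.931). The groups were apart in mouse and overlapped in spiny mouse. Per kilobase of exon, untreated levels were 0.229 ± 0.0906 FPKM in mouse and 10.6 ± 2.07 in spiny mouse (SD, n = 4), set side by side without a test because the species have separate annotations. The difference between the species in the log2 fold change was -1.31 (SE 0.365, adjusted p = 0.00831). Summed neutrophil markers were 6.8 to 11.4 CPM in untreated and 18.9 to 30.1 in treated mouse skin, and 14.1 to 18.6 and 64.1 to 107 CPM in spiny mouse. Ly6g and Elane had at most 3 counts in every mouse library, Retnlg had at most 3 in every spiny mouse library, and Ly6g is not in the spiny mouse table. Both neutrophil markers that could be tested in mouse rose, of 8 listed, and in spiny mouse 4 of 5 tested rose and 1 fell. Their part in the Mmp8 values was not tested.

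The stromelysins Mmp3 and Mmp10 cut proteoglycans and fibronectin and activate other proMMPs. In spiny mouse Mmp3 went from 3.03, 2.3, 2.08 and 1.83 CPM to 26.6, 21.8, 14 and 79.8 CPM, a log2 fold change of 3.93 (SE 0.551, adjusted p = 0.000364). Mouse skin held 64.3, 14.8, 66.4 and 40.2 CPM untreated and 48.5, 49.7, 58.8 and 65.7 CPM treated, a change of 0.26 (SE 0.381, adjusted p = 0.569). The spiny mouse groups do not overlap and the mouse groups do, with untreated mouse replicate 2 the lowest library. The species difference of 3.67 (SE 0.703, adjusted p = 0.000609) was called in all 16 fits that left out 1 library, and was 2.91 (adjusted p = 0.000591) without spiny mouse treated replicate 4. Set side by side per kilobase, untreated Mmp3 was 25.8 ± 13.4 FPKM in mouse and 1.28 ± 0.287 in spiny mouse, and treated Mmp3 30.9 ± 4.51 and 19.8 ± 16.6 FPKM (SD, n = 4).

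Mmp10 in spiny mouse was 1.6, 1.31, 1.74 and 2.33 CPM untreated and 7.32, 12.7, 6.7 and 61.5 CPM treated, with a log2 fold change of 3.66 (SE 0.765, adjusted p = 0.00317). Without treated replicate 4, the highest library by far, it was 2.37 (adjusted p = 0.000406). In mouse Mmp10 was low, at 0.366, 0.0439, 0.696 and 1.28 CPM untreated and 0.998, 1.14, 0.8 and 3.42 CPM treated, and its change of 1.42 (SE 0.734, adjusted p = 0.119) was called only when untreated replicate 4 was left out (2.08, adjusted p = 0.0492). Without treated replicate 4, its highest library, it was 0.74 (adjusted p = 0.402). The species difference for Mmp10, 2.22 (SE 1.15, adjusted p = 0.126), was not called and was 0.94 (adjusted p = 0.376) without spiny mouse treated replicate 4, so a larger rise in spiny mouse was not shown for this gene. Mmp11 (stromelysin 3), which furin activates inside the cell, rose in both species. Its mouse level went from 9.49, 10.6, 11.2 and 10.3 CPM to 22.5, 30.3, 27.9 and 35.6 CPM in mouse (log2 fold change 1.48, SE 0.146, adjusted p = 5.04e-05). Its spiny mouse level went from 20.7, 16.7, 14.9 and 17.3 CPM to 35.5, 26.9, 20.1 and 61 CPM (1.04, SE 0.301, adjusted p = 0.0159). The mouse groups are apart, while treated spiny mouse replicate 3 lies within the untreated range. Without treated replicate 4 the spiny mouse change of Mmp11 was 0.67 (adjusted p = 0.0194), and the species difference, -0.45 (adjusted p = 0.322) with all libraries, was then -0.82 (adjusted p = 0.0164).

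Gelatinases cut denatured collagen and the type IV collagen of basement membranes. Mmp9 in spiny mouse was 9.9, 14, 20.2 and 11.7 CPM untreated and 50, 61, 58.4 and 344 CPM treated. The log2 fold change was 3.20 (SE 0.667, adjusted p = 0.00312), and 2.03 (adjusted p = 0.000291) without treated replicate 4. In mouse Mmp9 was 29.1, 13, 29.1 and 57.2 CPM untreated and 46.2, 40.5, 46.1 and 123 CPM treated, and the change of 1 (SE 0.475, adjusted p = 0.0951) was called only when untreated replicate 4 was left out (1.43, adjusted p = 0.0274) among fits without 1 library. Without treated replicate 4 it was 0.48 (adjusted p = 0.327). In both species treated replicate 4 is highest, and only the spiny mouse groups are apart. Mmp2, the constitutive gelatinase, was 181, 96.7, 202 and 170 CPM in untreated and 128, 167, 143 and 152 CPM in treated mouse skin (change -0.14, adjusted p = 0.586). It was 241, 267, 193 and 216 CPM in untreated and 263, 286, 309 and 428 CPM in treated spiny mouse skin, a rise of 0.49 (SE 0.16, adjusted p = 0.0277) that was called in 6 of 8 fits with 1 library left out, not without untreated replicate 3 or 4 (adjusted p = 0.0674 and 0.0683). The Mmp2 groups overlap in both species. In the mouse annotation 25.5% of the exon bases of Mmp2 are shared with Gm45472 on the opposite strand.

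The species differences of Mmp13 and Mmp9 were called, at 3.38 (SE 1.29, adjusted p = 0.0429) and 2.21 (SE 0.853, adjusted p = 0.045), but only just. Among the 16 fits that each left out 1 library, Mmp13 was called in 5 and Mmp9 in 6. Without spiny mouse treated replicate 4 the differences were 1.92 (adjusted p = 0.171) for Mmp13 and 1.03 (adjusted p = 0.179) for Mmp9. That library also had the highest macrophage marker sum of its group, 1290 CPM, against 840 to 1010 in the other treated and 531 to 630 in the untreated spiny mouse libraries, and 4 of 8 macrophage markers were called higher. In mouse the macrophage sum was 432 to 1190 CPM untreated and 498 to 725 treated, with 3 of 8 markers called lower. Treated mouse replicate 4 was highest at 725 CPM, close to the 702 of replicate 3. Untreated mouse replicate 4, the highest of its group for Mmp13, Mmp9 and Mmp10, had 639 CPM. No macrophage marker was at 0 throughout. In both species replicate 4 also had the lowest basal keratinocyte sum of the treated libraries, 14100 CPM in mouse and 16800 in spiny mouse. Its suprabasal keratinocyte sums, 9260 and 9840 CPM, were the lowest as well. The part of these markers in the Mmp13, Mmp9 and Mmp10 values was not tested.

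**Figure D2:**
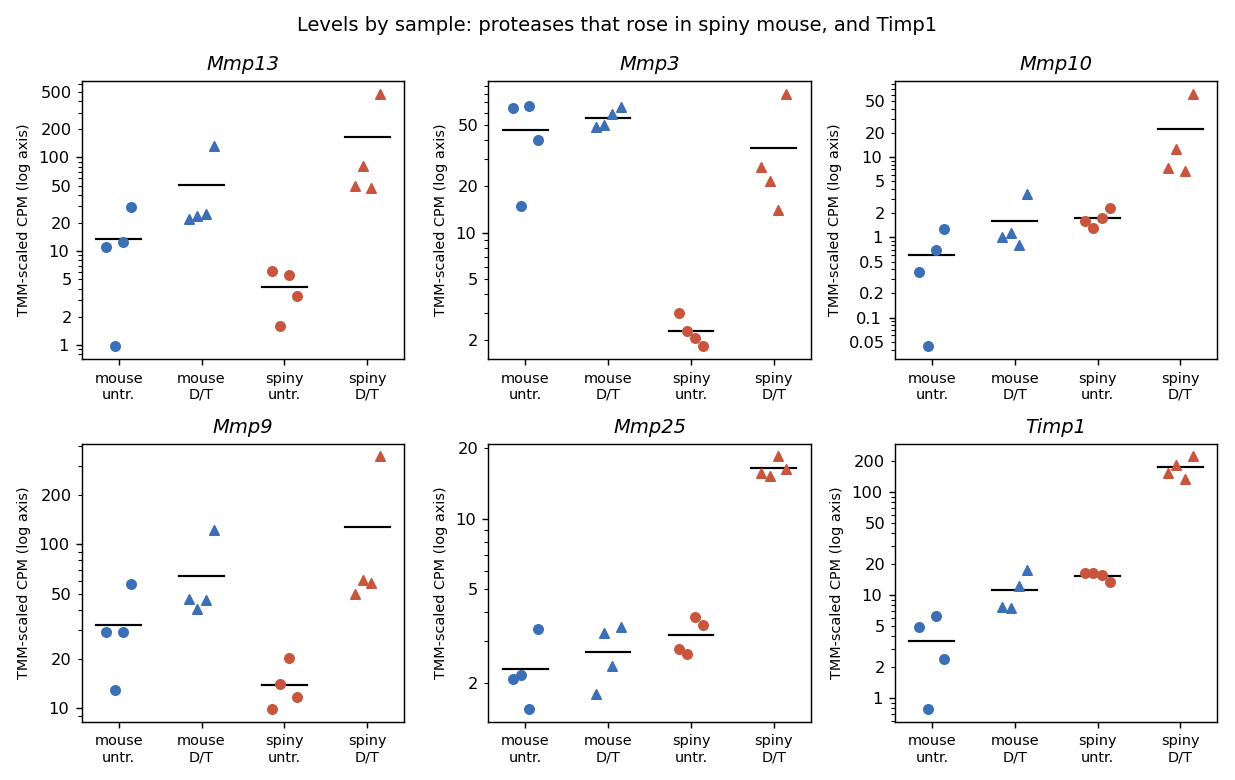
TMM-scaled CPM (log axis) of Mmp13, Mmp3, Mmp10, Mmp9, Mmp25 and Timp1 in each library, untreated (untr., circles) and DMBA/TPA (D/T, triangles), with the group mean as a line. In each group libraries stand left to right as replicates 1 to 4; treated replicate 4 is the highest for Mmp13, Mmp10 and Mmp9 in both species.

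Mmp12, the macrophage elastase, varied more between libraries than between groups. It was 21.3, 23.9, 52 and 6.61 CPM untreated and 61.3, 34.5, 3.6 and 37.4 CPM treated in mouse, and 24, 51.6, 66.5 and 38.9 CPM untreated and 39.8, 45.5, 17.9 and 136 CPM treated in spiny mouse. The changes were 0.39 (SE 0.744, adjusted p = 0.663) and 0.40 (SE 0.55, adjusted p = 0.562). In spiny mouse the value without treated replicate 4 was -0.38, and in mouse it was -0.02 without treated replicate 1, so each direction rests on 1 library. Mmp7 (matrilysin), an epithelial protease, had 2 counts in all mouse libraries together and 11 to 38 counts per library in spiny mouse. There it was 0.919, 0.635, 0.783 and 0.868 CPM untreated and 0.5, 0.786, 1.39 and 0.548 CPM treated (change 0.03, SE 0.335, adjusted p = 0.946).

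Within the cluster on chromosome 9, the 3 genes that rose in spiny mouse hold the AP-1 site in the mouse promoter, and so do Mmp12 and Mmp7, which were not called there. In mouse, where the promoters were read, the tested cluster genes with the site are Mmp13, Mmp3, Mmp10 and Mmp12. These were not called in mouse with all libraries. Mmp8, which rose in mouse, lacks the site. The part of AP-1 in these changes was not tested. In mouse 6 of the 10 cluster genes were tested, 1 rose (Mmp8) and 1 fell (Mmp27), where 25.9% of all genes rose and 35.3% fell. In spiny mouse 7 were tested, 3 rose (Mmp13, Mmp3 and Mmp10) and 1 fell (Mmp27), where 28.2% of all genes rose and 26.9% fell. Over the 6 cluster genes tested in both species the median log2 fold change was 0.87 in mouse and 2.03 in spiny mouse, and the median difference was 1.43. With Mmp7, tested in spiny mouse alone, the spiny mouse median was 0.40. The medians of all genes are -0.146, -0.01 and -0.032. Mmp27 fell from 6.8, 3.95, 9.56 and 9.52 CPM to 2.15, 2.46, 2.33 and 2.97 CPM in mouse (-1.59, SE 0.284, adjusted p = 0.00131). The spiny mouse level fell from 10.9, 10.2, 7.45 and 11.1 CPM to 4.37, 5.54, 6.51 and 3.98 CPM (-0.95, SE 0.187, adjusted p = 0.00227). Treated and untreated libraries of Mmp27 do not overlap in either species.

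**Figure D3:**
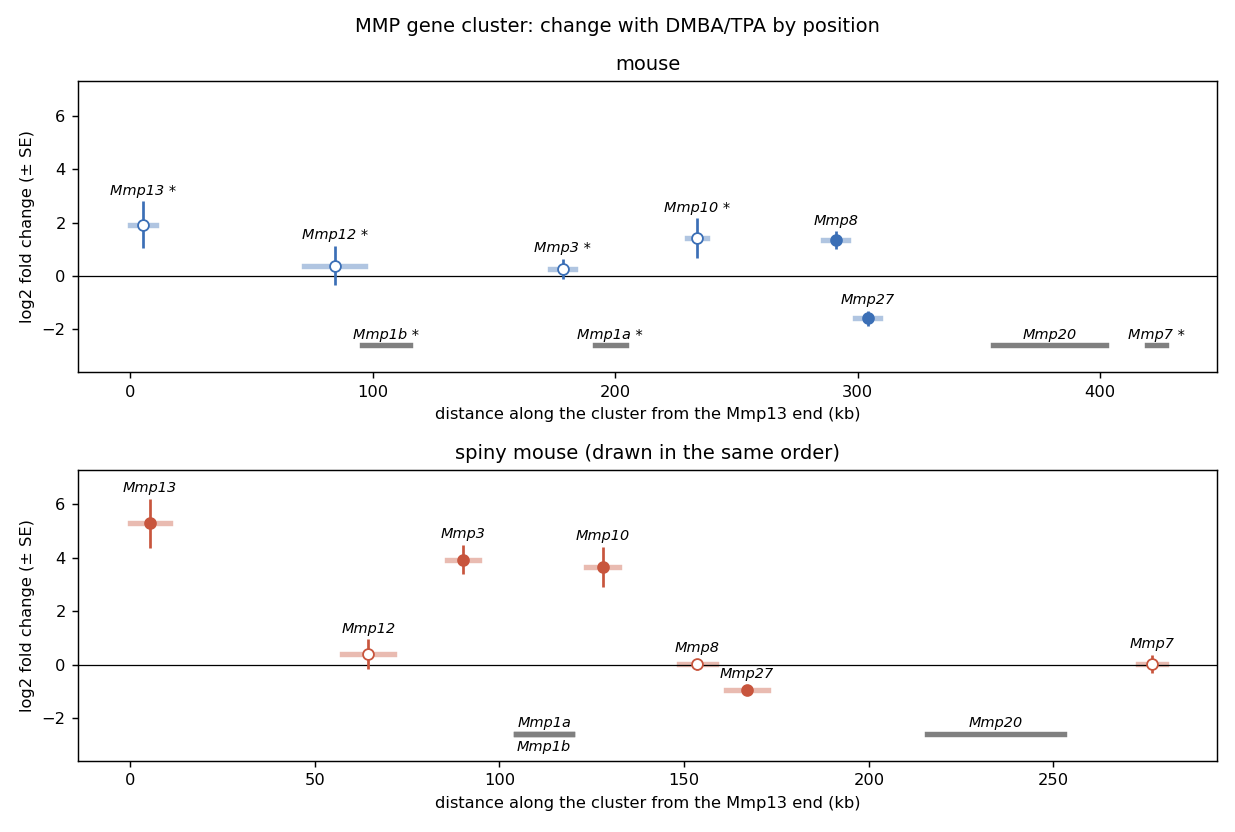
Log2 fold change with standard error (vertical axis) of the cluster genes by distance in kb from the Mmp13 end, in mouse (top) and spiny mouse (bottom); filled points have an adjusted p under 0.05, thick bars span the gene, and grey bars mark genes with too few counts to test. Asterisks mark mouse genes with the AP-1 site in a promoter. In spiny mouse Mmp13, Mmp3 and Mmp10 stand above the genes between and beside them.

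Membrane-type MMPs are tethered to the cell surface, and Mmp14 is known to activate proMMP2 there. Mmp14 was 151, 115, 182 and 183 CPM untreated and 172, 195, 172 and 202 CPM treated in mouse (change 0.23, SE 0.158, adjusted p = 0.228). Spiny mouse Mmp14 was 218, 257, 206 and 193 CPM untreated and 284, 240, 211 and 334 CPM treated (0.29, SE 0.146, adjusted p = 0.116), called only without treated replicate 3 (0.39, adjusted p = 0.0371). Both pairs of groups overlap. Mmp25, a lipid-anchored enzyme described in leukocytes, rose in spiny mouse from 2.79, 2.66, 3.81 and 3.52 CPM to 15.7, 15.3, 18.5 and 16.3 CPM, a log2 fold change of 2.36 (SE 0.139, adjusted p = 8.52e-06). The treated spiny mouse libraries lie close together, and replicate 4 does not stand out. Mouse Mmp25 was 2.08, 2.15, 1.54 and 3.37 CPM untreated and 1.79, 3.25, 2.36 and 3.45 CPM treated (0.26, SE 0.305, adjusted p = 0.483). The species difference for Mmp25, 2.10 (SE 0.323, adjusted p = 0.000104), was called in all 16 fits with 1 library left out. The neutrophil sums given above were higher in the treated libraries of both species, while Mmp25 was called in spiny mouse alone. Their part in the Mmp25 values was not tested.

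Mmp16 moved in opposite directions. Mouse levels rose from 0.733, 1.18, 1.03 and 0.729 CPM to 1.73, 3.25, 1.82 and 2.78 CPM (log2 fold change 1.38, SE 0.303, adjusted p = 0.00373). Spiny mouse levels fell from 1.6, 1.78, 1.74 and 1.28 CPM to 0.409, 0.715, 0.842 and 0.503 CPM (-1.35, SE 0.251, adjusted p = 0.00168). The groups are apart in both species, and the difference of -2.73 (SE 0.385, adjusted p = 4.81e-05) was called in all 16 fits with 1 library left out. Of the other membrane-type genes, Mmp15 and Mmp17 fell in both species, by 0.33 and 0.58 on the log2 scale in mouse and by 0.64 and 0.83 in spiny mouse. Both mouse calls were lost with DESeq2, that of Mmp15 also in 5 of 8 fits with 1 library left out (untreated replicates 1 and 3, treated replicates 2, 3 and 4) and that of Mmp17 in all but the fit without treated replicate 2. Mmp24 was not called in either species.

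Mmp28 (epilysin), a protease of epidermal keratinocytes, fell more in mouse. It went from 25.3, 24.2, 23.9 and 25.8 CPM to 9.03, 7.03, 6.4 and 5.68 CPM in mouse (-1.82, SE 0.149, adjusted p = 2.08e-05). Spiny mouse Mmp28 went from 22.6, 23.5, 18 and 24 CPM to 17, 17.8, 14.8 and 17.5 CPM (-0.39, SE 0.107, adjusted p = 0.0121). The groups are apart in both, narrowly so in spiny mouse, and the difference was 1.43 (SE 0.18, adjusted p = 1.86e-05). The basal keratinocyte sums given above were higher in the treated libraries of both species, and their part in the Mmp28 values was not tested. Mmp19, first described in skin and synovium, was 22.1, 11.8, 24.5 and 12.6 CPM untreated and 16.7, 15.9, 15.9 and 18.4 CPM treated in mouse (-0.09, adjusted p = 0.757). Spiny mouse Mmp19 rose from 28.7, 36.5, 31.9 and 30.2 CPM to 42.3, 40.9, 38.2 and 56 CPM (0.48, SE 0.129, adjusted p = 0.0115). The mouse groups overlap, and the spiny mouse groups do not. Exon bases of Mmp19 are shared with opposite-strand genes for 28.3% of its length in mouse and 35.2% in spiny mouse, and no strand option stands in the counting command. Mmp23, a membrane protein released by cleavage, fell in spiny mouse (-0.82, SE 0.205, adjusted p = 0.00773) and was not called in mouse (-0.49, SE 0.252, adjusted p = 0.116), where leaving out untreated replicate 2 or scaling by upper quartiles or library size gave a call. Mmp21, tested in spiny mouse alone, was not called.

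Timp1, an inhibitor with broad reach over MMPs, rose in both species and more in spiny mouse. Spiny mouse libraries went from 16.3, 16.3, 15.6 and 13.5 CPM to 154, 183, 134 and 221 CPM, a log2 fold change of 3.49 (SE 0.159, adjusted p = 3.54e-06) or 11.2-fold. Mouse libraries went from 4.93, 0.789, 6.26 and 2.41 CPM to 7.77, 7.47, 12.2 and 17.4 CPM (1.63, SE 0.532, adjusted p = 0.0241). Groups are apart in both species, with untreated mouse replicate 2 the lowest library. The mouse call was lost without untreated replicate 4 (1.49, adjusted p = 0.0599) or treated replicate 4 (1.36, adjusted p = 0.0704). The difference between the species, 1.86 (SE 0.551, adjusted p = 0.012), was called in all 16 fits with 1 library left out.

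Timp2, which also takes part in the activation of proMMP2 by Mmp14, fell in mouse from 606, 329, 545 and 433 CPM to 297, 318, 318 and 339 CPM (-0.59, SE 0.191, adjusted p = 0.0238). That call held in 2 of 8 fits with 1 library left out, those without untreated replicate 2 or 4, and adjusted p ran to 0.0808 in the others. The groups overlap, with untreated replicate 2 inside the treated range. Spiny mouse Timp2 was 409, 465, 374 and 441 CPM untreated and 353, 383, 347 and 497 CPM treated (-0.09, SE 0.127, adjusted p = 0.551). Timp4 fell in both species, from 15.1, 9.25, 15.9 and 18.3 CPM to 3.26, 5.71, 3.86 and 2 CPM in mouse (-1.98, SE 0.319, adjusted p = 0.00073). Spiny mouse Timp4 fell from 3.81, 6.11, 7.18 and 6.35 CPM to 1.59, 2.25, 3.15 and 2.06 CPM (-1.36, SE 0.253, adjusted p = 0.00165). No treated library reaches an untreated one for Timp4. Skeletal muscle markers, given above, fell in the same libraries, and their part in the Timp4 values was not tested.

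Timp3, the inhibitor that binds the matrix and also blocks ADAMTS proteases, could be read in mouse only. There it rose from 215, 219, 189 and 218 CPM to 315, 297, 283 and 283 CPM (0.49, SE 0.111, adjusted p = 0.00456). The groups are apart, but the call was lost with upper-quartile factors (0.28, adjusted p = 0.0554) and with library size alone (0.24, adjusted p = 0.0751). In the spiny mouse annotation 94.6% of the exon bases of Timp3 also belong to Syn3 on the same strand, and fragments in bases shared by several genes were not counted. Spiny mouse Timp3 thus had 0 to 5 counts per library and was not tested. Syn3 had 239 to 889 counts per library in spiny mouse and 37 to 98 in mouse. A low level of spiny mouse Timp3 cannot be read from these counts. In the mouse annotation 21.3% of the exon bases of Timp3 are shared with Syn3 on the opposite strand.

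ADAMTS proteases of the proteoglycanase branch cut aggrecan and versican. In mouse 4 of 7 rose and none fell, where 25.9% of all genes rose and 35.3% fell. In spiny mouse 2 of 7 rose, near the 28.2% of all genes, and 3 of 7 fell, a larger share than the 26.9% of all genes. Adamts1 rose in mouse from 42.5, 48.5, 42.1 and 39.4 CPM to 118, 109, 102 and 134 CPM (1.42, SE 0.115, adjusted p = 1.98e-05). Spiny mouse Adamts1 was 74.6, 76.5, 71 and 69.6 CPM untreated and 44.7, 64.1, 60.5 and 82.3 CPM treated (-0.21, SE 0.153, adjusted p = 0.262). The groups are well apart in mouse and overlap in spiny mouse, where the change was called only without treated replicate 4 (-0.36, adjusted p = 0.0384). The difference of -1.64 (SE 0.199, adjusted p = 1.35e-05) was called in all 16 fits with 1 library left out.

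Adamts4, an aggrecanase, rose in both species by nearly the same amount. It went from 0.733, 2.32, 1.54 and 1.78 CPM to 5.15, 5.63, 4.26 and 7.09 CPM in mouse (1.80, SE 0.327, adjusted p = 0.00141). Spiny mouse Adamts4 went from 2.79, 2.46, 1.63 and 2.01 CPM to 5.96, 7.15, 4.03 and 13.3 CPM (1.77, SE 0.353, adjusted p = 0.00253). Groups are apart in both, and the difference was -0.03 (SE 0.484, adjusted p = 0.961). A standard error of that size leaves room for a sizeable difference either way.

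Adamts5, the other main aggrecanase, was 147, 61.8, 113 and 76.7 CPM untreated and 80, 94.2, 92.6 and 106 CPM treated in mouse (-0.10, SE 0.245, adjusted p = 0.75). Spiny mouse Adamts5 fell from 145, 155, 126 and 137 CPM to 66, 76.4, 63.6 and 102 CPM (-0.87, SE 0.145, adjusted p = 0.000963). Only the spiny mouse groups are apart, but the species difference of -0.77 (SE 0.305, adjusted p = 0.049) was called in only 6 of 16 fits with 1 library left out, with adjusted p up to 0.0955 in the others. Adamts9, a versican protease, was 13.6, 28, 14 and 14.9 CPM untreated and 22.2, 20.9, 19.6 and 23.8 CPM treated in mouse (0.30, SE 0.229, adjusted p = 0.284). Without untreated replicate 2, the highest of those libraries, the mouse change was 0.70 (adjusted p = 8.67e-05). In spiny mouse Adamts9 rose from 25.6, 24.8, 18 and 22 CPM to 32, 30.4, 25.9 and 41.2 CPM (0.52, SE 0.156, adjusted p = 0.0189). Of the remaining genes of this branch, Adamts15 rose in mouse (0.98, SE 0.17, adjusted p = 0.00107) and was not called in spiny mouse, and Adamts8 fell in spiny mouse (-0.48, SE 0.166, adjusted p = 0.0327). The Adamts8 groups overlap, and its call held in 2 of 8 fits with 1 library left out, those without untreated replicate 2 or treated replicate 3. Adamts15 was called in spiny mouse when untreated replicate 3 was left out.

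Adamts20, a relative of Adamts9 known from the pigment cells of hair, moved in opposite directions. Mouse libraries held 1.75, 15.2, 3.22 and 2.64 CPM untreated and 17, 16.7, 17.1 and 18 CPM treated (1.60, SE 0.588, adjusted p = 0.0392). Spiny mouse libraries fell from 5.75, 4.76, 4.49 and 6.67 CPM to 1.87, 2.47, 1.9 and 2.19 CPM (-1.36, SE 0.174, adjusted p = 0.000229). Untreated mouse replicate 2 nearly reaches the treated level. The mouse call held in 1 of 8 fits with 1 library left out, the fit without untreated replicate 2, where the change was 2.84 (adjusted p = 1.37e-07). It was lost as well by upper quartiles (1.33, adjusted p = 0.0901) and by library size (1.31, adjusted p = 0.0929). The species difference of -2.96 (SE 0.677, adjusted p = 0.00235) was called in all 16 such fits.

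Adamts18 and Adamts3 showed the same odd library. Adamts18, a member of the family with few known substrates, was 0.366, 7.59, 0.916 and 0.774 CPM untreated and 12.7, 14.5, 15.9 and 12.6 CPM treated in mouse (2.54, SE 0.77, adjusted p = 0.0175). Without untreated replicate 2 its change was 4.42 (adjusted p = 3.93e-08). Spiny mouse Adamts18 was 9.73, 10.5, 4.42 and 6.54 CPM untreated and 8.73, 5.32, 5.86 and 9.82 CPM treated (-0.07, SE 0.295, adjusted p = 0.847). The mouse groups are apart even with replicate 2, and the spiny mouse groups overlap. The difference was -2.62 (SE 0.839, adjusted p = 0.0184), and -4.50 without that library.

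Adamts3 belongs with Adamts2 and Adamts14 to the proteases that trim the amino-terminal propeptide of procollagens. In mouse it was 0.448, 2.89, 0.586 and 0.729 CPM untreated and 3.83, 3.16, 3.16 and 2.97 CPM treated (1.5, SE 0.534, adjusted p = 0.0345). Without untreated replicate 2 the change was 2.57 (adjusted p = 3.96e-06), and in the other 7 fits with 1 library left out it was not called. Nor was it with upper-quartile factors (1.25, adjusted p = 0.084) or library size (1.22, adjusted p = 0.0872). Spiny mouse Adamts3 was 8.23, 4.16, 7.22 and 5.39 CPM untreated and 5.69, 7.04, 7.98 and 8.18 CPM treated (0.20, SE 0.215, adjusted p = 0.442). For Adamts18, Adamts20 and Adamts3 the untreated mouse library with the raised anagen hair sum is the one near the treated level. Treated mouse libraries are high in both these genes and the hair markers. The part of hair follicle state in these values was not tested.

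Adamts14 fell the most of the 44 genes tested in mouse, from 29.2, 45, 27 and 37.7 CPM to 6.72, 7.03, 5.06 and 6.09 CPM (-2.48, SE 0.19, adjusted p = 1.55e-05). Spiny mouse Adamts14 fell from 8.54, 6.74, 8.27 and 8.09 CPM to 4.09, 3.22, 3.59 and 3.75 CPM (-1.11, SE 0.126, adjusted p = 0.00012). Groups are far apart in both, and the fall was smaller in spiny mouse, by 1.37 (SE 0.227, adjusted p = 0.000193). Adamts2 was 155, 112, 217 and 194 CPM untreated and 115, 172, 140 and 145 CPM treated in mouse (-0.25, SE 0.209, adjusted p = 0.325). Spiny mouse Adamts2 fell from 82.6, 106, 71.2 and 87.5 CPM to 43.7, 43.4, 40.7 and 52.5 CPM (-0.95, SE 0.126, adjusted p = 0.000278). Its species difference, -0.70 (SE 0.256, adjusted p = 0.0356), was called in 10 of 16 fits with 1 library left out, with adjusted p up to 0.0796. Fibroblast markers summed to 7530 to 11700 CPM in untreated and 4950 to 7300 in treated mouse skin, and to 3640 to 5540 and 2850 to 3970 CPM in spiny mouse. Of 8 fibroblast markers 3 fell in mouse, and 2 rose and 4 fell in spiny mouse. Their part in the falls of these collagen-processing genes was not tested.

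Adamts12, which cuts cartilage oligomeric matrix protein, fell in spiny mouse from 73.7, 63.1, 67.8 and 58.5 CPM to 26.2, 28.9, 26.6 and 28 CPM (-1.26, SE 0.0836, adjusted p = 1.15e-05). Mouse Adamts12 was 20.4, 31.6, 34.5 and 24 CPM untreated and 29.9, 42.6, 36.6 and 29.4 CPM treated (0.33, SE 0.188, adjusted p = 0.158), called only without untreated replicate 2 (0.49, adjusted p = 0.0279) among fits with 1 library left out. The spiny mouse groups are far apart, and the difference of -1.59 (SE 0.215, adjusted p = 3.46e-05) was called in all 16 fits with 1 library left out. Of the other tested ADAMTS genes, Adamts10, a fibrillin-binding protease, fell in mouse (-1.07, SE 0.195, adjusted p = 0.00144), and Adamts17 fell in spiny mouse (-0.60, SE 0.141, adjusted p = 0.00599). Adamts6 and Adamts7 were not called in either species with all libraries. Adamts6 was called without mouse untreated replicate 4 or spiny mouse untreated replicate 2, and Adamts7 and Adamts10 in spiny mouse without treated replicate 4. Adamts17 was called in mouse without untreated replicate 2, and Adamts19, tested in mouse alone, was not called.

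**Figure D4:**
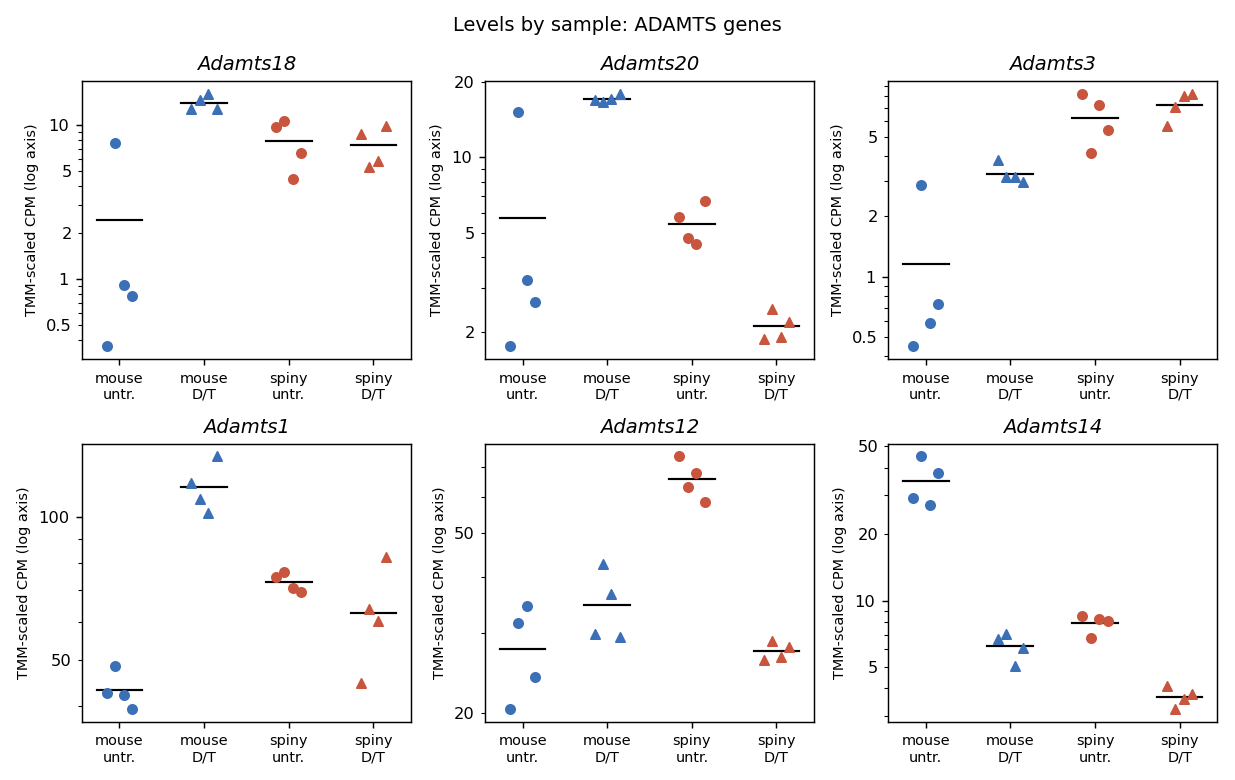
TMM-scaled CPM (log axis) of 6 ADAMTS genes in each library, untreated (untr., circles) and DMBA/TPA (D/T, triangles), with the group mean as a line and replicates 1 to 4 from left to right. Untreated mouse replicate 2 stands near the treated libraries for Adamts18, Adamts20 and Adamts3, while Adamts1, Adamts12 and Adamts14 show no such library.

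All 5 ADAMTSL genes fell in spiny mouse and 4 of 5 fell in mouse. Adamtsl5 fell by 1.53 on the log2 scale in spiny mouse (SE 0.11, adjusted p = 1.57e-05), from 43.2, 52.3, 38.3 and 38.3 CPM to 13.8, 15.4, 15.1 and 15.2 CPM. In mouse it went from 50.7, 65.3, 50.8 and 50.2 CPM to 26, 20.6, 22.5 and 29.4 CPM (-1.14, SE 0.141, adjusted p = 0.00017). Both pairs of groups are apart, and treated spiny mouse libraries lie within a narrow band.

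Adamtsl3 fell in mouse from 11.8, 12.5, 13 and 7.29 CPM to 2.31, 2.29, 2.07 and 2.45 CPM (-2.29, SE 0.206, adjusted p = 3.23e-05). Spiny mouse Adamtsl3 went from 7.72, 7.3, 8.78 and 10.6 CPM to 3.05, 3.93, 4.14 and 4.93 CPM (-1.10, SE 0.175, adjusted p = 0.000741). Adamtsl4, whose product binds fibrillin microfibrils, fell in mouse from 57.6, 98.5, 46.3 and 47.7 CPM to 16.9, 16.3, 19.8 and 20.9 CPM (-1.76, SE 0.241, adjusted p = 0.000299). Spiny mouse Adamtsl4 went from 82.1, 93.6, 72.3 and 80.1 CPM to 45.2, 59.4, 69.6 and 70.8 CPM (-0.42, SE 0.141, adjusted p = 0.0298), called in 5 of 8 fits with 1 library left out, not without untreated replicate 2 or 4 or treated replicate 2 (adjusted p 0.0769, 0.0543 and 0.0689). Treated libraries of both genes lie below all untreated ones in either species. The falls were smaller in spiny mouse, by 1.19 (SE 0.27, adjusted p = 0.00223) for Adamtsl3 and by 1.34 (SE 0.294, adjusted p = 0.00174) for Adamtsl4. Adamtsl1 fell in both, at -1.02 (SE 0.119) in mouse and -0.92 (SE 0.0901) in spiny mouse. Adamtsl2, with 0.182 to 0.823 CPM in spiny mouse, fell there (-1.07, SE 0.296, adjusted p = 0.013) and was not called in mouse (0.04), and its difference of -1.10 (SE 0.397) was called at an adjusted p of 0.0334. That difference held in 8 of 16 fits with 1 library left out, not without untreated replicates 1 and 4 or treated replicates 1 and 3 of mouse or untreated replicates 2 and 4 or treated replicates 1 and 2 of spiny mouse. Scaling by library size or by upper quartiles lost it as well.

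Whether the change with DMBA/TPA differed between the species was tested by an interaction term over 13656 symbols, 42 of them from these families. It was called for 22 of the 42 (52.4%), against 46.1% of all symbols, with 10 positive and 12 negative (21.4% and 24.7% of all symbols). Positive means that the signed log2 fold change was higher in spiny mouse, which includes genes that fell less there, and negative that it was lower. The median difference was 0.001, with -0.032 for all symbols. By family, the difference was positive for 5 of 18 MMP genes (Mmp3, Mmp13, Mmp9, Mmp25 and Mmp28, the last of which fell less in spiny mouse) and negative for 2 (Mmp16 and Mmp8). Of 16 ADAMTS genes it was positive for 2, Adamts14 and Adamts10, both of which had the larger fall in mouse, and negative for 9. Of 5 ADAMTSL genes it was positive for Adamtsl3 and Adamtsl4, which also had the larger fall in mouse, and negative for Adamtsl2. Of 3 TIMP genes it was positive for Timp1. This split moves with the scaling: upper-quartile factors gave 13 positive and 7 negative, library size alone 14 and 7, and no count filter 7 and 16.

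Among the 42 genes tested in both species, 15 were called in both, 7 in mouse alone, 15 in spiny mouse alone and 5 in neither. Of the 15, 3 rose in both (Adamts4, Mmp11 and Timp1), 10 fell in both, and Mmp16 and Adamts20 rose in mouse and fell in spiny mouse. The direction thus matched for 86.7%, against 77% of the 4906 symbols called in both species over all genes. The 10 that fell in both were Adamts14, Adamtsl1, Adamtsl3, Adamtsl4, Adamtsl5, Mmp15, Mmp17, Mmp27, Mmp28 and Timp4.

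To compare levels between genes, values were set per kilobase of exon (FPKM). Timp2, Mmp2 and Mmp14 were the 3 highest genes of the families that could be read in untreated skin of both species, Timp3 being unreadable in spiny mouse, with 123 ± 31.5, 48.1 ± 13.5 and 26.5 ± 5.36 FPKM in mouse and 119 ± 11.1, 70.3 ± 9.82 and 58 ± 7.28 FPKM in spiny mouse (SD, n = 4). In mouse Mmp14 did not differ beyond its spread from Timp3 (25.8 ± 1.75) and Mmp3 (25.8 ± 13.4). Fragments in the 21.3% of mouse Timp3 exon bases shared with Syn3 were not counted, while the full length was used. Mouse Timp3 may thus stand too low here, and its order against Mmp14 is not settled. The same limit holds for mouse Mmp2, with 25.5% of its exon bases shared with Gm45472, while spiny mouse Mmp2 shares none. In treated mouse skin the order opened with Timp2 at 81.7 ± 4.44 and Mmp2 at 43.8 ± 4.85 FPKM. In treated spiny mouse skin it opened with Timp1 at 195 ± 42.6 FPKM, ahead of Timp2 at 111 ± 19.6 and Mmp2 at 98.5 ± 22.5.

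Summed over the family, MMP transcripts in spiny mouse were 202, 227, 197 and 196 FPKM untreated and 279, 288, 262 and 695 FPKM treated, and in mouse 166, 90.3, 187 and 165 FPKM untreated and 152, 166, 156 and 241 FPKM treated. TIMP transcripts were 134, 151, 125 and 141 FPKM untreated and 273, 314, 249 and 389 FPKM treated in spiny mouse, where Timp3 is not counted, and 190, 114, 173 and 144 against 124, 128, 131 and 142 FPKM in mouse. Every treated spiny mouse library lies above the untreated ones in both sums, and the mouse groups overlap in both. ADAMTS sums were 63.7 to 75.5 FPKM untreated and 42.2 to 60.4 treated in spiny mouse, and in mouse 52.4 to 58.4 untreated and 57.8 to 67.2 treated. Untreated ADAMTSL sums of 25.3 to 41.7 FPKM in mouse and 27.6 to 35.4 in spiny mouse stood against treated sums of 9.83 to 12.9 and 14.4 to 20.9. The cluster on chromosome 9 made up 13.3% to 19.4% of MMP transcripts in untreated and 20.6% to 44.6% in treated spiny mouse skin, the highest share in replicate 4. In mouse its share was 15.4% to 28.9% untreated and 26.4% to 39.8% treated, also highest in treated replicate 4, and the groups overlap. A high share is thus not particular to treated spiny mouse skin. These sums are descriptions and carry no test.

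**Figure D5:**
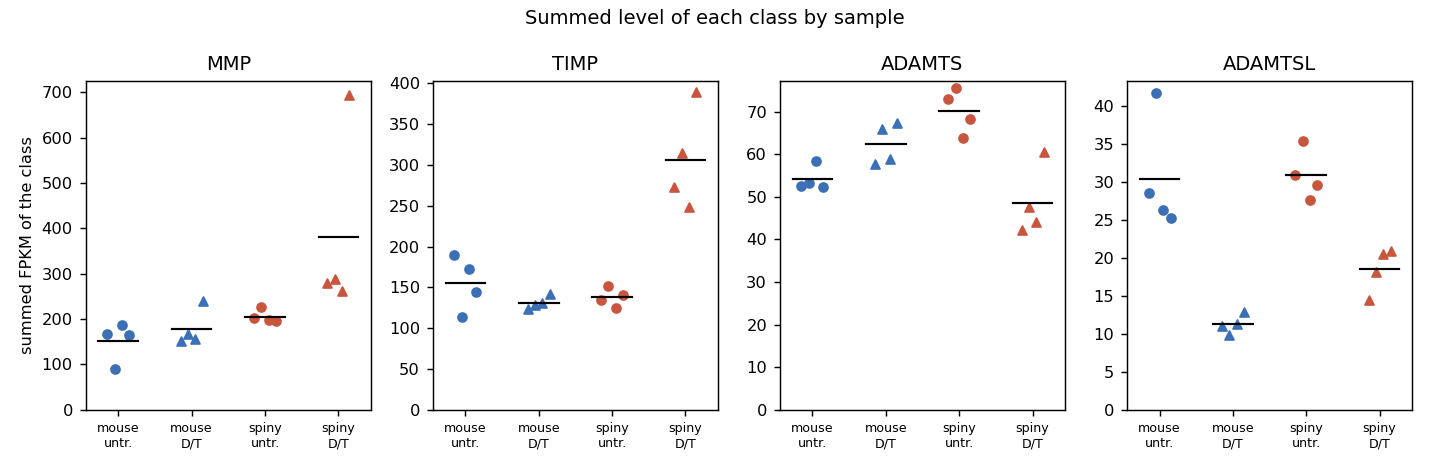
Summed FPKM of the MMP, TIMP, ADAMTS and ADAMTSL genes in each library, untreated (untr., circles) and DMBA/TPA (D/T, triangles), with the group mean as a line; each vertical axis starts at 0. The spiny mouse MMP and TIMP sums are higher in all 4 treated libraries, and ADAMTSL sums are lower after treatment in both species.

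Several genes could not be tested. Mmp1a and Mmp1b, the mouse interstitial collagenases, had 0 to 7 and 0 to 9 counts per mouse library. In CPM, mouse Mmp1a was 0.0814, 0, 0 and 0.0911 untreated and 0.368, 0, 0.182 and 0 treated, and Mmp1b 0.122, 0.0439, 0.11 and 0.41 untreated and 0, 0.0879, 0.255 and 0.334 treated. In spiny mouse both are listed at 0 in all libraries, where all exon bases of Mmp1b and 56.6% of those of Mmp1a are shared between them, so that fragments in the shared bases could not be assigned to either. None was counted in the rest of Mmp1a. Mmp20, Mmp21, Adamts13, Adamts16 and Mmp7 in mouse, and Mmp20, Adamts13, Adamts16 and Adamts19 in spiny mouse, also fell under the filter on low counts.

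Genes that regulate or accompany these proteases were counted from lists, against shares of 25.9% higher and 35.3% lower for all mouse genes and 28.2% and 26.9% for all spiny mouse genes. Of 16 activators and regulators, 6 rose and 2 fell among 15 tested in mouse, and 7 rose and 1 fell among 16 in spiny mouse. Lcn2, whose product binds MMP9, rose by 3.98 (SE 0.3, adjusted p = 1.45e-05) in mouse and 2.46 (SE 0.27, adjusted p = 0.000104) in spiny mouse. Reck, a membrane inhibitor of MMPs, fell by 0.86 in mouse and by 0.53 in spiny mouse on the log2 scale. Of 8 ADAM proteases, 3 rose and 2 fell in mouse, with Adam12 at 1.87 and Adam33 at -1.92. In spiny mouse 4 rose and 2 fell, with Adam8 at 2.15 and Adam33 at -0.51. Adam8, a leukocyte protease, had a larger change in spiny mouse, by 1.96 (adjusted p = 4.86e-05).

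Among cathepsins and other matrix proteases 3 of 9 tested rose and none fell in mouse, led by Ctsl at 2.54, and 5 rose and 2 fell of 9 in spiny mouse, led by Ctsk at 1.52 and Dpp4 at -0.71. Of the genes that process procollagen and elastin, 4 rose and 2 fell of 13 in mouse, and 3 rose and 4 fell of 14 in spiny mouse. Plod2, a collagen lysyl hydroxylase, rose by 1.87 in mouse and fell by 2.38 in spiny mouse, a difference of -4.25 (adjusted p = 3.31e-06). Pcolce2, an enhancer of the procollagen C-proteinase, fell by 1.87 in mouse, and Tll2, a proteinase of that kind, rose by 2.23 in spiny mouse. Of 18 substrates tested in each species, 5 rose and 5 fell in mouse and 4 rose and 6 fell in spiny mouse. Tnc (tenascin C) rose most in both, by 3.63 and 2.84, while Dcn (decorin) fell most in mouse, by 1.16, and Bcan fell most in spiny mouse, by 3.12.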

How the data were processed

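The authors deposited raw fragment counts per gene in 1 table for each species, the only unit used. Per the file headers, read pairs with both ends mapped were counted with featureCounts 2.0.3, on GRCm39 with Ensembl 108 for mouse and on the AcoCah2 assembly for spiny mouse. No option for strand, multimapping or overlapping genes stands in the headers, so fragments that fit several genes were not counted and opposite-strand genes could not be told apart. Per the submitters' processing notes, Trim Galore and HISAT2 were used; their settings are not given in the sources used here. GENCODE M39 gave symbols to 56236 of 56980 mouse identifiers. Treated columns match the labels by name. Untreated columns bear a different code, so species letter and replicate number tied them to their samples. No column of per-sample values was left unused.

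Counts were analysed within each species with edgeR 4.0.16 in R 4.3.3 (filterByExpr, TMM, quasi-likelihood F test, Benjamini-Hochberg over all genes, called under 0.05). The SE is the log2 fold change divided by the square root of F. FPKM is TMM-scaled CPM per kilobase of the deposited exon length. The species difference is the interaction term, over symbols present a single time in both tables. No pair of replicates agreed within sampling noise. On simulated counts at a log2 fold of 1, the test recovered 75% of changed genes in mouse, 81% in spiny mouse and 35.6% for the difference, and at a log2 fold of 2 it recovered 100% in each. The simulation gave every gene the same relative spread and held no outlying library, and genes with the lowest counts were not changed in it. These shares therefore do not apply to genes with few counts or a wide spread, such as Mmp13, Mmp10 and Mmp9. Values in every sample are given for the called genes with the 6 largest rises, falls and differences each way at a mean of at least 1 CPM, and for a list of 23 well-known members; the 5 lists of related genes are given by counts, with the largest called changes. Genes and lists were chosen with earlier results of these data known. Alternatives were DESeq2 1.42.0 (test or size factors), upper-quartile factors, library size alone, other count filters, a replicate block, a fold limit, and leaving out each library.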

Additional observations from a re-analysis of the deposited data

Results flagged for a closer look

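In groups of 4, a library was noted when its gap to the nearest other library took up nearly the whole range of its group (Dixon's ratio above 0.829), which chance alone gives in about 1 of 20 groups. Many groups were looked at, so some of the libraries named below are expected by chance. Untreated mouse replicate 2 was high for Adamts18 (7.59 CPM), Adamts20 (15.2 CPM), Adamts3 (2.89 CPM), Adamts9 (28 CPM) and Adamtsl5 (65.3 CPM), and this is the library with the raised hair follicle markers. Treated mouse replicate 4 was high for Mmp13 (133 CPM), Mmp9 (123 CPM) and Mmp10 (3.42 CPM). Treated spiny mouse replicate 4 was high for the same genes: Mmp13 (479 CPM), Mmp9 (344 CPM) and Mmp10 (61.5 CPM). Untreated mouse replicate 3 was low for Timp3 (189 CPM), and treated spiny mouse replicate 3 was high for Mmp8 (38 CPM).

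The test of the interaction found a change that differed between the species for 17 of the genes whose values are given in every sample. The signed log2 fold change was higher in spiny mouse by 3.67 for Mmp3, 3.38 for Mmp13, 2.21 for Mmp9, 2.10 for Mmp25, 1.86 for Timp1, 1.43 for Mmp28, 1.37 for Adamts14, 1.34 for Adamtsl4 and 1.19 for Adamtsl3. Of these, Mmp28, Adamts14, Adamtsl4 and Adamtsl3 fell in both species and fell less in spiny mouse. The difference was -2.96 for Adamts20, -2.73 for Mmp16, -2.62 for Adamts18, -1.64 for Adamts1, -1.59 for Adamts12, -1.31 for Mmp8, -0.77 for Adamts5 and -0.70 for Adamts2.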

How the results depend on the processing

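Counts of called genes stayed within 1.5 times their main value under every alternative except the fold limit in spiny mouse, where 16 of the 30 calls had a log2 fold change of at least 1. With 1 library left out they ran from 17 to 29 in mouse, 27 to 32 in spiny mouse and 16 to 29 for the difference. The fold limit set aside, 57 of the 75 calls over the 3 comparisons were lost in no alternative that gave an adjusted p. The other 18 were lost in at least 1, and none reversed. DESeq2 gave no adjusted p for Mmp9 in spiny mouse or for the Mmp9 and Adamts20 differences. The median of all mouse genes moved by -0.204 (upper-quartile factors), -0.238 (library size alone) and 0.146 (no filter), and that of all differences by 0.165, 0.222 and -0.133, with -0.104 for DESeq2 size factors. With upper-quartile factors or unscaled libraries mouse Timp3, Adamts20 and Adamts3 and the differences of Adamts5, Adamts2, Adamts8, Adamts17 and Adamtsl2 lost their calls, and those of Mmp2, Mmp19 and Timp2 gained one. DESeq2 size factors gave 2.10 (adjusted p = 0.051) for the Mmp9 difference. Without the low-count filter the Mmp13 and Mmp9 differences were 3.24 (adjusted p = 0.0511) and 2.07 (adjusted p = 0.0586). Mouse Mmp9, not called in the main fit, was called by the DESeq2 test (1.09, adjusted p = 0.0226). Leaving out the filter gave calls in mouse for Mmp9 (1.14, adjusted p = 0.0432), Mmp13 (2.06, adjusted p = 0.0435) and Adamts12 (0.48, adjusted p = 0.0452). A depth of 3 counts limits Mmp1a, Mmp1b, Mmp7 and Mmp20 in mouse.

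The labels do not say whether replicate numbers pair the samples. Same-numbered deviations correlated at 0.00916 on average in mouse and -0.394 in spiny mouse, but so few pairs cannot settle whether samples were paired. A replicate block gave 25 called genes for mouse, 27 for spiny mouse and 17 for the difference. With the replicate block Mmp13 and Mmp9 were called in mouse (2 and 1.01), and their differences were 2.63 (adjusted p = 0.0816) and 1.63 (adjusted p = 0.0643). Adamts12 was called in mouse as well (0.34, adjusted p = 0.0469). Calls lost were Timp2 in mouse (adjusted p = 0.059) and Mmp2 (0.0602), Adamtsl4 (0.0511) and Adamts8 in spiny mouse. The differences of Adamts2 (adjusted p = 0.0558), Adamts5 (0.0536) and Adamts8 were lost too.

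Results that reversed had no call, and the cause was not tested. Among genes given in every sample these were, in mouse, Adamts5 (0.01 with either use of DESeq2 and 0.05 without the filter), Mmp19 (0.02 and 0.06) and Mmp2 (0.01 without the filter). In spiny mouse upper-quartile factors gave -0.01 for Mmp7 and -0.02 for Mmp8, and the replicate block gave -0.05 for Mmp7. For the difference DESeq2 gave -0.13 (test) and -0.12 (size factors) for Mmp12 and -0.05 for Mmp14. Without the filter the Mmp12 and Mmp14 differences were -0.15 and -0.07, and the replicate block gave -0.37 for Mmp12. The Adamts4 difference was 0.14 by upper quartiles and 0.21 by library size. Of the other genes, Adamts7 (DESeq2, no filter), Adamtsl2 (upper quartiles, library size) and Adamts19 (replicate block) reversed in mouse, and the differences of Adamtsl1 (DESeq2 test, no filter) and Mmp24 (upper quartiles, library size) did so too. With 1 library left out, mouse values ran from -0.20 to 0.16 for Adamts5, -0.22 to 0.17 for Mmp19, -0.23 to 0.05 for Mmp2 and -0.02 to 1.04 for Mmp12. Spiny mouse values ran from -0.37 to 0.20 for Mmp7, -0.21 to 0.13 for Mmp8, -0.27 to 0.10 for Adamts18 and -0.38 to 0.70 for Mmp12. Differences ran from -0.77 to 0.42 for Mmp12, -0.08 to 0.16 for Mmp14, -0.43 to 0.19 for Adamts4 and -0.18 to 0.32 for Adamts9.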

Other observations

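Among genes that the families act on or with, several moved in opposite directions in the 2 species. Such movement is not particular to them. Of the 4906 symbols called in both species over all genes, 644 rose in mouse and fell in spiny mouse, and 482 did the reverse. Fbn2 (fibrillin 2) rose by 1.62 in mouse and fell by 2.01 in spiny mouse on the log2 scale, a difference of -3.64 (SE 0.491, adjusted p = 3.31e-05). Ltbp2, a latent TGF-beta binding protein of microfibrils, fell by 0.73 in mouse and rose by 2.11 in spiny mouse, a difference of 2.84 (adjusted p = 2.1e-05). Loxl2, a collagen crosslinking enzyme, rose by 0.44 in mouse and fell by 1.23 in spiny mouse, a difference of -1.67 (adjusted p = 8.12e-06). Adam19 fell by 0.55 in mouse and rose by 0.86 in spiny mouse, a difference of 1.41 (adjusted p = 9.76e-07). Mmp20 (enamelysin), a tooth enamel protease, was not tested in mouse, but its untreated levels of 0, 0.132, 0 and 0 CPM lay below the treated levels of 0.263, 0.747, 0.618 and 0.891 CPM. These 5 genes were chosen after their values were seen.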
